A study of Mus musculus with 13 samples.

Results

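Cardiac macrophages, the resident phagocytes of the heart, were followed here from E12.5 to P3 (embryonic and postnatal days) in single-cell RNA sequencing of whole mouse hearts. A cell was taken as a macrophage when it had fewer than 1000 CPM (its counts of unique molecular identifiers, UMIs, scaled to a fixed total per cell) of the cardiomyocyte gene Tnnt2, and at least 6 UMIs summed over C1qa, C1qb, C1qc, Csf1r, Fcer1g and Tyrobp with at least 3 of these 6 genes seen. This rule found 435 macrophages among 46413 heart cells with at least 1000 UMIs and 300 genes, which is 0.937% of them, and among 15965 such cells with low Tnnt2, which is 2.72%. The comparison population throughout is the other 15530 cells with low Tnnt2, a mixture of mesenchymal, endothelial, epicardial and blood cells.

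All mice were wild-type C57Bl/6J, with no treatment named, and hearts were dissociated without any described sorting or enrichment of macrophages. Each embryonic stage gave 2 libraries, with 20 and 14 macrophages at E12.5, 64 and 47 in those of E14.5, and 61 and 50 in those of E16.5. Both P3 records share 1 count matrix whose barcodes end in 1 or 2, called wells 1 and 2 here, with 83 and 96 macrophages, and nothing maps the wells to the records, so P3 counted as 1 sample. The study also sequenced trunks of E8.5 and E10.5 embryos, and 86400 cells passed the same floors in the 10 count matrices used, where the first E8.5 library was not analysed here. The labels speak of biological replicates without saying which animals or litters went into each suspension, how many hearts were pooled or what sex they were, so p-values measure the spread between these libraries only. Counts of the first E16.5 library came from 2 records in a single matrix.

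Macrophages of the embryonic heart descend from progenitors of the yolk sac and the fetal liver, settle in the tissue and maintain themselves there, and monocytes from the blood are added later. They depend on the receptor Csf1r, make the C1q chains that begin the classical complement pathway, take up dying cells through receptors such as Mertk and digest them in lysosomes. In the postnatal heart, macrophages that carry Lyve1, Folr2 and Timd4 are commonly told apart from those that carry Ccr2 or major histocompatibility complex (MHC) class II proteins.

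The C1q genes stand side by side on chromosome 4, and the promoters of C1qb and C1qc are shown because these genes carry the identity of the cells. C1qa had no entry in the promoter table used. Below are the 250 bases before the annotated start in RefSeq (GRCm38.p6) of C1qb at chr4:136886201-136886450 and C1qc at chr4:136892915-136893164, both on the minus strand and written 5′ to 3′, with the core of the PU.1 box, GAGGAA or its reverse complement TTCCTC, in capitals. PU.1, encoded by Spi1, is a transcription factor that myeloid cells need.
C1qb: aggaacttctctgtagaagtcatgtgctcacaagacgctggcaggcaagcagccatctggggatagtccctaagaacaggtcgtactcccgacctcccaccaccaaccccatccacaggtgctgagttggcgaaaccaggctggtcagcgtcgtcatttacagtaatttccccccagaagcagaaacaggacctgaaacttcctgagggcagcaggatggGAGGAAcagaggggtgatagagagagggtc
C1qc: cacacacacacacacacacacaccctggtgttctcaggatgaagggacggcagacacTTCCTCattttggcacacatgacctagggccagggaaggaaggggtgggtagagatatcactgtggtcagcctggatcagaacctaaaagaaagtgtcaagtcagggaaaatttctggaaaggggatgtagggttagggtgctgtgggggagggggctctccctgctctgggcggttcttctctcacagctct
The match lies 30 bases before the start of C1qb and 193 bases before that of C1qc. These letters occur in 23.1% of 27025 promoters of the same length, on either strand, and in 10 of 16 promoters of macrophage markers that the rule did not use. A match is a description of the sequence and not a binding site.

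The macrophages were sequenced about as deeply as the cells around them. Median UMIs per macrophage were highest at E12.5, with 18706 and 16627, and came to 11008 and 8718 (E14.5), 10372 and 7683 (E16.5), and 11693 and 10696 (P3 wells), against 8660 to 17276 in the other cells with low Tnnt2. The 6 chosen genes gave medians of 94 to 253 UMIs per macrophage, so the threshold of 6 lay far below the usual cell. Just inside it, with 6 to 11 UMIs, were 1 and 3 macrophages at E12.5, 2 in E16.5 replicate 1 and none elsewhere. Outside the rule, 7 to 26 cells with low Tnnt2 per library or well had at least 3 of these UMIs, with medians of 3 to 32, so many of them had 6 UMIs or more and lacked the third gene. A further 0 to 11 cells per library passed on the chosen genes but had high Tnnt2. No barcode was a macrophage in more than 1 library, and any pair of libraries shared at most 76 barcodes among all their cells, where 59.6 would be shared by unrelated draws.

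Macrophages made up a larger share of the cells after E12.5, and a larger one again at P3. Among cells with low Tnnt2 they made up 0.771% (exact 95% interval 0.471 to 1.19) and 0.411% (0.225 to 0.688) at E12.5. At E14.5 the shares were 3.32% (2.57 to 4.22) and 2.65% (1.95 to 3.51). At E16.5 they were 3.46% (2.65 to 4.42) and 3.37% (2.51 to 4.42), and at P3 5.96% (4.78 to 7.34) and 5.93% (4.83 to 7.20) in the wells. Neither E12.5 library reached the share of any later one, the E14.5 and E16.5 intervals overlapped, and both P3 wells lay above every embryonic library. The intervals cover counting error only.

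**Figure D1:**
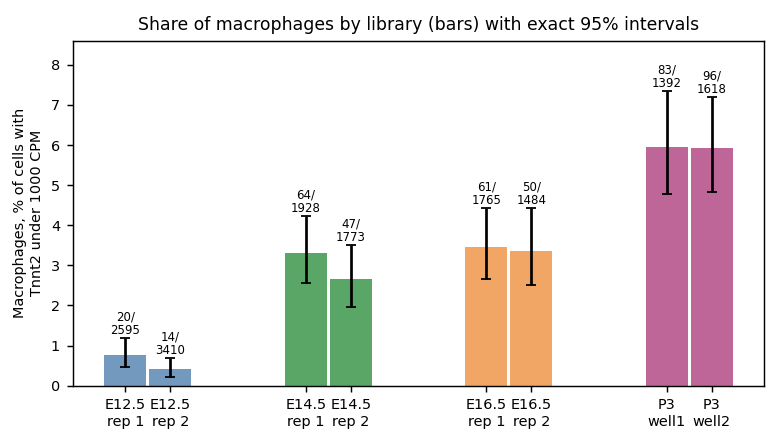
Share of macrophages among cells with low Tnnt2 (%, vertical axis) in each heart library or P3 well, grouped by stage on the horizontal axis. Bars are the shares of libraries or wells and whiskers are exact 95% binomial intervals. The E12.5 libraries lie under 0.8% and the P3 wells near 5.9%.

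The mean share rose 5.05-fold from E12.5 (0.591% ± 0.255, SD, n = 2) to E14.5 (2.99% ± 0.473, n = 2), and single pairs of libraries gave ratios of 3.44 to 8.09. From E14.5 to E16.5 (3.41% ± 0.0614, n = 2) the ratio was 1.14, with pairs from 1.01 to 1.30. Both wells of P3 stood 1.72- to 1.77-fold above the E16.5 libraries. The shares were not tested, since an exact permutation test of 2 libraries against 2 cannot go below p = 0.333. Over all heart cells, cardiomyocytes included, the shares ran from 0.185% at E12.5 to 2.1% at P3. On that base E14.5, with 1.1% and 0.907%, was not below E16.5, with 1.01% and 0.858%, so the direction of that step depended on the base. These are shares of a cell suspension and not of the tissue.

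The cells carried markers that the rule did not use. As a description, since the rule set the contrast, genes far above the other cells in every library were, beside the C1q genes, AF251705, Ctss, Aif1, Fcrls and Cx3cr1. Ctss, a lysosomal protease of antigen-presenting cells, had 258 to 1654 CPM in the macrophages and was at least 609-fold higher than in the other cells of the same library. Cx3cr1, the receptor for the chemokine fractalkine, was at least 471-fold higher, Trem2, a lipid-sensing receptor, at least 372-fold, and Spi1 at least 233-fold. Csf1r itself had 298 to 586 CPM and was at least 246-fold higher. Of the ligands of that receptor, Csf1 and Il34, neither had enough UMIs in the macrophages to be tested.

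Markers of other cell types were present to unlike degrees. Of the 435 macrophages, 33 had no UMI of any C1q gene, and 362 had all 6 chosen genes. Among the 33 were cells with the granulocyte genes S100a8 and S100a9. All macrophages with at least 10 UMIs of S100a8 and S100a9 together lacked C1q. There were 2 in E14.5 replicate 1, 2 and 4 at E16.5, and 4 in P3 well 1, and they held 499 of 500, 854 of 858, 397 of 400 and 713 of 727 UMIs of S100a8 in their library. Those cells had no UMI of Pf4 or Mrc1. Globin transcripts made up 0.117% to 10.3% of macrophage UMIs, against 3.46% to 18.2% in the other cells. They made up 47.5% of the UMIs of 1 cell in E12.5 replicate 2, 78.5% in 1 cell of E16.5 replicate 1 and 44.4% in 1 cell of P3 well 1. Fibroblast markers summed to 14 to 49 CPM in embryonic macrophages, against 1404 to 5468 CPM in the other cells. Cardiomyocyte markers were not lower in this way, with 1038 to 2730 CPM in the macrophages and 1384 to 2547 CPM in the other cells. At least 6 UMIs over at least 3 of these cardiomyocyte genes were seen in most macrophages, from 33 of 47 in E14.5 replicate 2 to 96 of 96 in P3 well 2.

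Expression in the macrophages was then compared between stages on UMIs summed per library, 278990 to 688435 in the embryonic libraries, over 4459 genes that had enough counts. At E12.5 these sums rest on few deep cells. The 3 cells without C1q in replicate 1 held 69064 of its 344679 UMIs. In replicate 2 the 1 cell without C1q held 40369 of 278990 UMIs, and another cell held 59328. From E12.5 to E14.5, 181 genes rose (4.06%) and 155 fell (3.48%) in edgeR's quasi-likelihood test at an adjusted p of 0.05. From E14.5 to E16.5 only 43 rose (0.964%) and 13 fell (0.292%). Over the whole span, E16.5 against E12.5, 323 rose (7.24%) and 255 fell (5.72%). Genes enriched in the macrophages were counted apart. These had a mean of at least 50 CPM in the macrophages of the higher stage. They also lay at least 2-fold above the other cells in both libraries of that stage. Of 632 such genes at E16.5, 216 rose since E12.5 (34.2%), whereas of 391 genes enriched at E12.5, 29 fell (7.42%). Enrichment and change share libraries, so these shares are a description. The floor of 50 CPM at the higher stage can favour genes that changed, and the gene lists below have no such floor. Counts rest on few libraries, and with 1 left out they were 106 to 297 for the first step (fewest without an E14.5 library), 1 to 144 for the second and 288 to 496 over the span (fewest without an E16.5 library). The 1 gene that passed the second step without E16.5 replicate 1 was Cd74. Here and below, a stage with 1 library left out has only 1 library, so the spread then comes from the other stages. A sum over cells cannot tell more expressing cells from more RNA per cell.

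Macrophage markers outside the rule rose in most cases. Over the whole span 13 of 19 tested rose and none fell, with a median log2 difference of 1.03, beside −0.02 over all genes tested. Of all macrophage-enriched genes 34.2% (216 of 632) rose. Lyz2, lysozyme, had 702 and 369 CPM at E12.5, then 1760 and 967 (E14.5) and 2982 and 3620 (E16.5). No library of a later embryonic stage was below one of an earlier stage, and the log2 change over the span was 2.54 ± 0.28 (SE; edgeR adjusted p = 0.000201). Without the cells that lacked C1q, here and below a choice made after the data were seen, the levels of Lyz2 were 591 and 428, 1118 and 834, and 2080 and 1896 CPM, and with at least 3 C1q UMIs per cell the change was 1.87 (Lyz2, E16.5 against E12.5, edgeR adjusted p = 0.000267). With each cell thinned to 2000 UMIs the first step of Lyz2, E14.5 against E12.5, turned to −0.10, and the change over the span was 1.25 and did not pass (edgeR adjusted p = 0.0595). Lgals3, galectin-3, a lectin of phagocytic cells, had 55.1 and 43 CPM, then 337 and 325, then 954 and 523. It rose at both steps and by 3.81 ± 0.32 in all (edgeR adjusted p = 2.88e-05), although neither step passed with at least 3 C1q UMIs per cell (Lgals3, E14.5 against E12.5, edgeR adjusted p = 0.0547, and Lgals3, E16.5 against E14.5, edgeR adjusted p = 0.244). Without the cells that lacked C1q, Lgals3 had 237 and 329 CPM at E14.5 and 849 and 282 CPM at E16.5, and those stages overlapped. Ctss rose by 1.97 ± 0.19 (edgeR adjusted p = 9.87e-05), from 397 and 258 CPM to 1503 and 1242. Ms4a7, a membrane protein of mature macrophages, had 34.8 and 39.4 CPM at E12.5 and 173 to 315 CPM in the later embryonic libraries, a gain of 2.93 ± 0.28 (edgeR adjusted p = 8.55e-05). Of the 13 markers, 8 passed again without either E16.5 library in turn and 10 among macrophages with at least 3 C1q UMIs.

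Spi1 and Cx3cr1 did not pass the test between any embryonic stages. Spi1 had 496 and 387, 389 and 439, and 532 and 561 CPM at the 3 stages, and Cx3cr1 had 688 and 624, 822 and 955, and 757 and 850. Spi1 at E14.5 lay within its E12.5 range and Cx3cr1 at E16.5 overlapped its E14.5 range, and the changes over the span were 0.20 ± 0.17 (edgeR adjusted p = 0.495) and 0.18 ± 0.17 (edgeR adjusted p = 0.549). In the P3 wells, which were not tested, Spi1 had 562 and 352 CPM and Cx3cr1 225 and 440 CPM, the latter below every embryonic library. The chosen genes are given as values only. C1qa had 1419 and 896 CPM at E12.5, then 1418 and 1375 (E14.5) and 3181 and 2592 (E16.5). Csf1r went from 308 and 298 CPM to 543 and 522 and then 545 and 586.

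**Figure D2:**
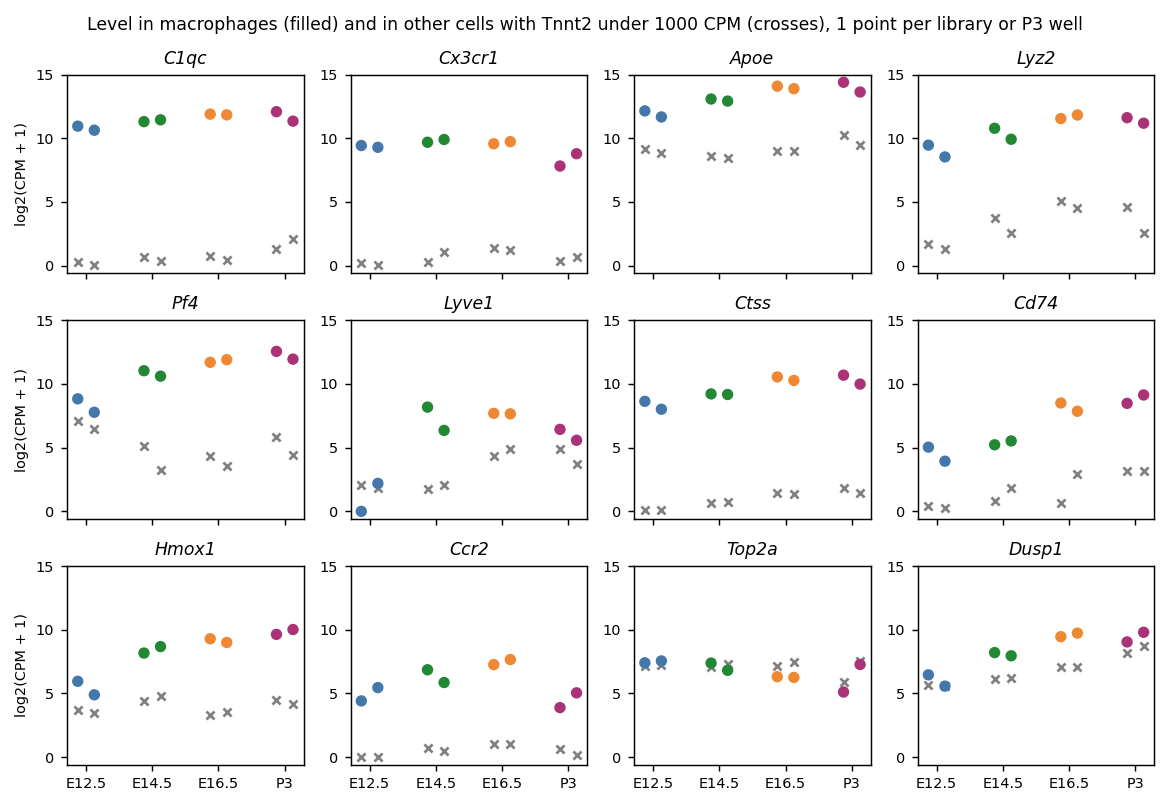
Level of 12 genes (log2 of CPM plus 1, vertical axis) by stage (horizontal axis), with 1 filled point per library or P3 well for the macrophages and 1 cross for the other cells with low Tnnt2. Apoe, Pf4 and Ctss climb in the macrophages through the embryonic stages, Cx3cr1 stays within a narrow range there, and Top2a is lower at E16.5 than at E12.5.

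Genes of the resident, yolk-sac type rose early. From E12.5 to E14.5, 9 of 13 tested rose and 1, Fcna, fell, with a median of 1.34, beside 20.9% (123 of 588) of macrophage-enriched genes that rose. From E14.5 to E16.5 none of the 13 passed the test in either direction, with a median of −0.26. Over the span 6 of the 13 rose, a share not far above the 34.2% (216 of 632) of macrophage-enriched genes. Lyve1, the hyaluronan receptor of resident macrophages and lymphatic vessels, had 0 and 3.58 CPM at E12.5, then 290 and 80.7 (E14.5) and 206 and 201 (E16.5). The P3 wells had 85.8 and 46.8 CPM, below both E16.5 libraries. The E12.5 libraries lay far below all later ones, and the change to E14.5 was 6.64 ± 0.98 (edgeR adjusted p = 0.00313). The other cells of those E14.5 libraries had 2.38 and 3.3 CPM, and those of E16.5 19.8 and 28.1. Pf4, a chemokine of platelets and of tissue macrophages, went from 455 and 219 CPM to 2105 and 1565 and then 3334 and 3844. Its stages did not overlap, and it rose by 3.33 ± 0.25 over the span (edgeR adjusted p = 1.5e-05), while in the other cells it went from 139 and 85.9 CPM to 19.4 and 10.8. F13a1, the A chain of clotting factor XIII, rose by 2.76 ± 0.39 (edgeR adjusted p = 0.000903), from 89.9 and 50.2 CPM to 388 and 656.

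Folr2, the folate receptor of resident macrophages, and Gas6, the bridge between dying cells and the receptors Axl and Mertk, both stepped up by E14.5. Folr2 had 17.4 and 14.3 CPM at E12.5 and 54.6 to 101 CPM in the later embryonic libraries, and rose to E14.5 by 2.25 ± 0.44 (edgeR adjusted p = 0.0116). Gas6 had 49.3 and 43 CPM and then 211 and 164, a rise of 1.96 ± 0.33 (edgeR adjusted p = 0.00727). Sepp1, selenoprotein P, rose by 1.82 ± 0.19 to E14.5 (edgeR adjusted p = 0.000306). Mrc1, the mannose receptor, had 189 and 136 CPM at E12.5 and 209 to 289 CPM in the later embryonic libraries, and its change of 0.57 ± 0.22 over the span did not pass (edgeR adjusted p = 0.108). Timd4, the phosphatidylserine receptor used to mark long-lived residents, stayed under 15 CPM in every embryonic library. Of the 10 genes called to E14.5, 5 passed again without E12.5 replicate 1, 5 without E14.5 replicate 1 and 6 without E14.5 replicate 2. Fcna, ficolin A, fell to E14.5 by 1.36 on the log2 scale (SE 0.35, edgeR adjusted p = 0.039), but 1 cell held 81.8% and 83.3% of its UMIs in the E12.5 libraries.

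Among microglia-type genes 2 of 7 tested rose over the span, a share no higher than the 34.2% (216 of 632) among all tested genes enriched in E16.5 macrophages. Fcrls, an Fc receptor-like protein, gained 0.92 ± 0.20 (edgeR adjusted p = 0.0102). P2ry12, the purine receptor of microglia, was present in every library at 50.8 to 78.9 CPM before birth and did not pass (−0.43 ± 0.33, edgeR adjusted p = 0.419). Sall1, the factor that defines microglia, had no UMI in any embryonic macrophage.

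Genes of antigen presentation rose. Of the MHC class II list 4 of 10 genes had enough counts, and H2-DMa, Cd74 and Ctss rose over the whole span, beside 34.2% (216 of 632) of macrophage-enriched genes. H2-DMa and Cd74 passed from E14.5 to E16.5, and Ctss passed at both steps. Cd74, the invariant chain that escorts class II molecules, had 31.9 and 14.3 CPM at E12.5, then 36.4 and 45.1 (E14.5) and 363 and 231 (E16.5). Both E16.5 libraries stood far above the other 4, with a change of 2.88 ± 0.29 from E14.5 (edgeR adjusted p = 0.00112). A single cell held 49.2% and 45.7% of the Cd74 UMIs in the E16.5 libraries. Without the top cell of each library Cd74 had 29.5 and 36.4 CPM at E14.5 and 188 and 129 CPM at E16.5. H2-DMa, which loads peptides, followed with 23.2 and 7.17, 13.1 and 23.7, and 95.9 and 93 CPM, a change of 2.40 ± 0.36 from E14.5 (edgeR adjusted p = 0.00728), which did not pass without E14.5 replicate 1 or E16.5 replicate 1 (adjusted p = 0.089 and 0.137).

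The class II molecules themselves were rare and sat in few cells. H2-Aa had no UMI before E16.5, where it had 119 and 7.54 CPM, and the P3 wells had 73.9 and 174 CPM. The E16.5 libraries thus differed widely from each other for H2-Aa, and likewise for H2-Eb1 at 85.7 and 7.54 CPM. Macrophages with at least 5 class II UMIs numbered 0 in each earlier library, 3 and 1 in those of E16.5, and 3 and 6 by P3, and these cells held 71.4% to 98.1% of the class II UMIs of their library or well. None of them had a UMI of Lyve1, and 1, 1, 1 and 4 had one of Ccr2. In E16.5 replicate 1 and in P3 well 1, 1 of these cells lacked C1q. That cell held 189 of the 207 class II UMIs of E16.5 replicate 1, and the one in P3 well 1 held 77 of 194. Most of the class II level of E16.5 replicate 1 thus came from 1 cell without C1q. The promoters of both genes (RefSeq, GRCm38.p6, 250 bases before the start) are shown because class II genes share a Y box, whose core ATTGG or its reverse complement CCAAT is in capitals. H2-Aa lies at chr17:34287824-34288073 on the minus strand and H2-Eb1 at chr17:34305617-34305866 on the plus strand.
H2-Aa: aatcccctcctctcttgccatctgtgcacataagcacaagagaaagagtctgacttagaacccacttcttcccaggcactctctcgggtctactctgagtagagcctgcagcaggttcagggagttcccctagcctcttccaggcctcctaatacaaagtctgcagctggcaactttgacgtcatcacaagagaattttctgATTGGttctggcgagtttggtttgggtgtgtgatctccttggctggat
H2-Eb1: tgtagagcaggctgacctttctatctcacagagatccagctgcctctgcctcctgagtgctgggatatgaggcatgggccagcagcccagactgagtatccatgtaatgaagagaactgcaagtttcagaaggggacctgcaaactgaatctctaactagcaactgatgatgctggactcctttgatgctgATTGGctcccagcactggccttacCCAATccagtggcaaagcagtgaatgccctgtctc
The core lies 48 bases before the start of H2-Aa, and 59 and 35 bases before that of H2-Eb1. These letters occur in 34.5% of all 27025 promoters.

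Class I presentation also rose, with 5 of 6 tested genes up over the span at a median of 1.27, beside 34.2% (216 of 632) of macrophage-enriched genes. H2-K1 had 63.8 and 64.5, 94.7 and 85.5, and 275 and 206 CPM, and rose by 1.39 ± 0.22 from E14.5 to E16.5 (edgeR adjusted p = 0.009). B2m, the light chain of class I molecules, rose by 1.03 ± 0.17 over the span (edgeR adjusted p = 0.00246), from 1166 and 968 CPM to 2622 and 2082. At P3 the wells had 588 and 461 CPM of H2-K1 and 4633 and 2970 CPM of B2m.

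Monocyte genes rose in 7 of 12 tested cases over the span, with a median of 1.22, beside 34.2% (216 of 632) of macrophage-enriched genes. Ccr2, the chemokine receptor that brings monocytes into tissue, had 20.3 and 43 CPM at E12.5, then 115 and 57 (E14.5) and 153 and 201 (E16.5). The embryonic stages did not overlap, and the gain was 2.39 ± 0.42 (edgeR adjusted p = 0.00337). Without the cells that lacked C1q, Ccr2 had 0 and 33.5, 105 and 55.6, and 105 and 175 CPM, so that E14.5 met E16.5. Ly6c2, a surface protein of blood monocytes, was not seen at E12.5 and then had 4.37 and 0 CPM (E14.5) and 42.1 and 75.4 CPM (E16.5). A single cell held 86.2% of the Ly6c2 UMIs in E16.5 replicate 1, and without the top cell of each library the E16.5 levels of Ly6c2 were 5.95 and 48.8 CPM. Without the cells that lacked C1q they were 1.58 and 11 CPM. In the P3 wells both were low again, at 13.8 and 32 CPM of Ccr2 and 8.87 and 0.821 CPM of Ly6c2. Plac8, another monocyte gene, did not pass (1.46 ± 0.63, edgeR adjusted p = 0.146). Among macrophages with at least 3 C1q UMIs 5 of the 7 monocyte genes could be tested and all 5 passed, and without E16.5 replicate 2 the number was 4 of 7.

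**Figure D3:**
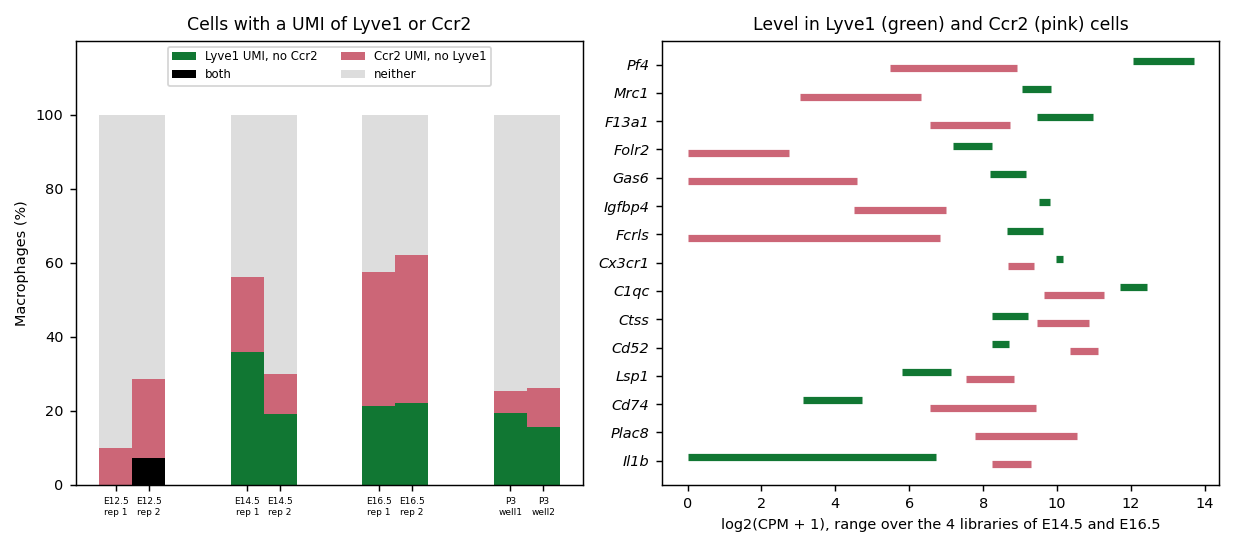
Left, percent of macrophages (vertical axis) with a UMI of Lyve1 alone, of Ccr2 alone, of both or of neither in each library or P3 well; right, range over the 4 libraries of E14.5 and E16.5 (log2 of CPM plus 1, horizontal axis) of 15 genes in cells with Lyve1 (green) and with Ccr2 (pink), where Plac8 had no UMI in the cells with Lyve1. A single macrophage, in E12.5 replicate 2, had both.

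Lyve1 and Ccr2 were hardly ever found in the same cell. At E14.5, 23 and 9 macrophages had Lyve1 and 13 and 5 had Ccr2. At E16.5, 13 and 11 had Lyve1 and 22 and 20 had Ccr2, and in the P3 wells 16 and 15 had Lyve1 and 5 and 10 had Ccr2. None of these cells had both, where the products of the shares would give 4.67, 0.957, 4.69, 4.40, 0.964 and 1.56 cells per library or well. Both counts miss cells of low depth. Thinned to 2000 UMIs each, 27.4% and 14% of the E14.5 macrophages had Lyve1, as did 15.3% and 16.7% of those of E16.5, against 0.35% to 3.35% of the other cells, and none did at E12.5 among 18 and 10 cells.

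The cells with Lyve1 and those with Ccr2 differed in other genes as well. The split was made after the values had been seen and is described without a test, over the 4 libraries of E14.5 and E16.5. Pf4 ran from 4236 to 13382 CPM in the cells with Lyve1 and from 43.2 to 483 CPM in those with Ccr2. Mrc1 had 529 to 908 against 7.20 to 79.4 CPM, and Folr2 144 to 304 against 0 to 5.67 CPM. C1qc and Csf1r, which the rule used and which are given as values only, had 3356 to 5561 against 800 to 2458 CPM and 600 to 1034 against 197 to 455 CPM. The cells with Ccr2 had more Cd74, at 92.8 to 684 against 7.79 to 25.2 CPM, and more Cd52, a small glycoprotein of leukocytes, at 1299 to 2210 against 304 to 416 CPM. Plac8 and Hp, haptoglobin, had no UMI in the cells with Lyve1 and 220 to 1492 and 116 to 159 CPM in those with Ccr2. Il1b, the pro-inflammatory cytokine, had 302 to 632 CPM with Ccr2 and 0 to 104 CPM with Lyve1. Of all 4457 other genes tested between stages, 15.7% were higher in the cells with Lyve1 in all 4 libraries and 9.78% were higher in those with Ccr2. Some genes would lie on the same side in all 4 libraries by chance, and how many was not tested. All 12 tested resident genes were higher with Lyve1, while 8 of 11 tested monocyte genes were higher with Ccr2 and none was lower.

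Some of the cells with Ccr2 had no C1q UMI, namely 3 and 1 in the E14.5 libraries and 5 in each library of E16.5, and none of those with Lyve1 did. Such cells were 2 of 2 and 1 of 4 with Ccr2 in the E12.5 libraries, and 4 of 5 and 1 of 10 in the P3 wells. S100a8 came to 58 to 2149 CPM in the cells with Ccr2 and was not seen in those with Lyve1. With only the cells with Ccr2 that had at least 3 C1q UMIs, an alternative added after the data were seen, 4 to 17 cells per library remained. Pf4 then had 50.7 to 618 CPM with Ccr2, Mrc1 9.54 to 95.1 CPM and Cd74 88.7 to 421 CPM, and Plac8 had 114 to 1317 CPM. The rule genes C1qc and Csf1r had 874 to 3149 CPM and 203 to 526 CPM with Ccr2, nearer to their levels with Lyve1. The same numbers of listed genes separated, 12 of 12 and 8 of 11, beside 13% and 9.74% of all genes.

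**Figure D4:**
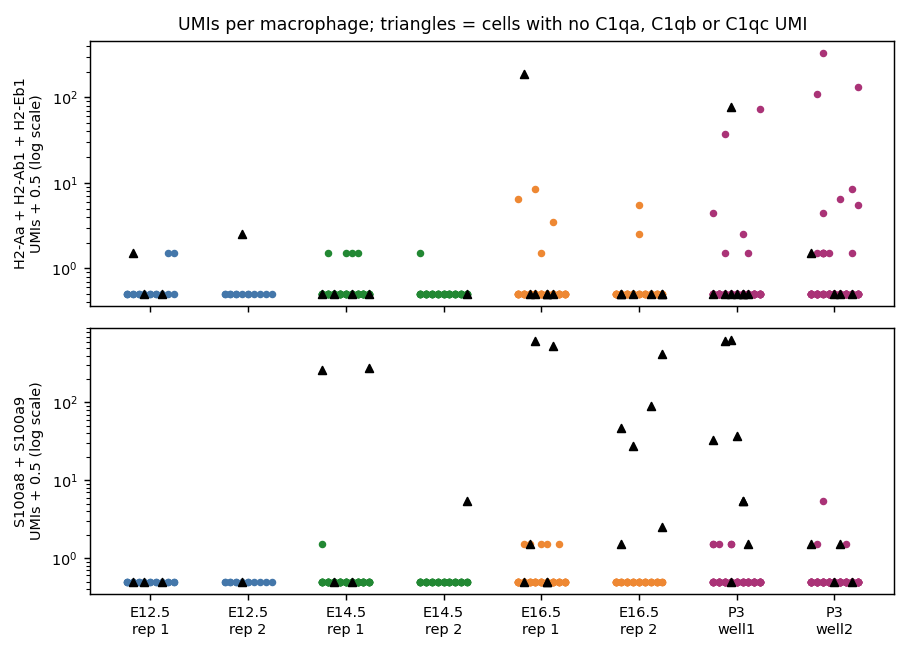
UMIs per macrophage (plus 0.5, log vertical axes) of the class II genes H2-Aa, H2-Ab1 and H2-Eb1 (top) and of S100a8 and S100a9 (bottom) in each library or P3 well (horizontal axis), 1 mark per cell, with black triangles for cells without C1q. High counts sit in a few cells of the later libraries, and those of S100a8 and S100a9 in cells without C1q.

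A small group of cells carried Cd207, langerin, a lectin known from Langerhans cells. It had no UMI at E12.5 or E14.5, 110 and 52.8 CPM at E16.5 and 133 and 78.8 CPM at P3. It was seen in 9, 2, 9 and 10 cells there, of which 2, 0, 0 and 1 also had Ccr2 and 1, 0, 1 and 2 had Lyve1. A single cell of E16.5 replicate 2 held 81% of the Cd207 UMIs of that library. With a floor of 3 UMIs per library Cd207 was at least 7.41-fold higher at E16.5 than at E14.5. S100a8 and S100a9 lead the list of genes by fitted change over the span, at least 93.5-fold and 40.1-fold above E12.5, but they come from the cells without C1q described above. With the macrophages restricted to those with at least 3 C1q UMIs, both genes had too few counts to be tested. Over 12 neutrophil markers the summed level in the macrophages was 81.2 and 10.8 CPM at E12.5, then 804 and 33.2 (E14.5) and 1851 and 1501 (E16.5).

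Other complement genes also rose. Outside the chosen C1q genes 4 of 5 tested rose over the span, beside 34.2% (216 of 632) of macrophage-enriched genes. Among the 4 were C3ar1 and C5ar1, receptors for the fragments C3a and C5a, and Itgb2, a chain of complement receptor integrins. C5ar1 had 89.9 and 53.8 CPM at E12.5, then 108 and 161 (E14.5) and 163 and 239 (E16.5), a gain of 1.34 ± 0.30 (edgeR adjusted p = 0.0116). C3ar1 rose early, by 1.13 ± 0.21 to E14.5 (edgeR adjusted p = 0.00972). Cfp, properdin, gained 1.5 ± 0.28 between E14.5 and E16.5 (edgeR adjusted p = 0.0262).

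Most of the lysosomal genes tested rose. Over the span 16 of 22 tested rose and none fell, with a median of 0.98. Of these 22, 12 rose from E12.5 to E14.5 and 1, Ctsh, from E14.5 to E16.5. Of all macrophage-enriched genes 34.2% (216 of 632) rose over the span, 20.9% (123 of 588) at the first step and 4.91% (31 of 632) at the second. Ctsh, an aminopeptidase of the cathepsin family, had 122 and 108, 278 and 252, and 543 and 538 CPM. The embryonic stages lay well apart, and it rose by 2.13 ± 0.19 (edgeR adjusted p = 6.92e-05). Ctsd, an aspartic protease, had 426 and 409 CPM at E12.5, then 1129 and 1316 (E14.5) and 947 and 832 (E16.5). It rose by 1.46 ± 0.18 to E14.5 (edgeR adjusted p = 0.00126) and then did not pass in either direction. Lamp1, a major protein of the lysosomal membrane, had 293 and 276, 619 and 629, and 466 and 563 CPM, and rose by 1.05 ± 0.19 to E14.5 (edgeR adjusted p = 0.00743). The early step rested on few libraries, since 2 or 3 of the 12 genes passed without an E14.5 library and 4 without E12.5 replicate 1, while of the 16 called over the span 9 to 14 passed with any 1 library left out.

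Some lysosomal promoters hold the palindrome CACGTG, the centre of the element that the transcription factor Tfeb reads, and the promoters of Ctsd and Lamp1, chosen because they hold these letters, are shown with it in capitals. Ctsd lies at chr7:142387828-142388077 on the minus strand and Lamp1 at chr8:13158911-13159160 on the plus strand (RefSeq, GRCm38.p6, 250 bases before the start).
Ctsd: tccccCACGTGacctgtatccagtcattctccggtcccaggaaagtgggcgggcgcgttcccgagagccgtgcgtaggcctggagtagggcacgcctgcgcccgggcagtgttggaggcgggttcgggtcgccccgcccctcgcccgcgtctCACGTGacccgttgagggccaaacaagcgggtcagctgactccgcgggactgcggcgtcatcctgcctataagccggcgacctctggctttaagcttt
Lamp1: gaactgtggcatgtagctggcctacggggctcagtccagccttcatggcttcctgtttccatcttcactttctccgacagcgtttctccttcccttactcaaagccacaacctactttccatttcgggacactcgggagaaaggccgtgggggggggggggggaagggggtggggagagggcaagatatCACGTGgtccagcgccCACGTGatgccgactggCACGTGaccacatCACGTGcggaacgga
The matches lie 245 and 98 bases before the start of Ctsd, and 61, 45, 28 and 15 bases before that of Lamp1. The letters occur in 6.05% of all 27025 promoters and in 3 of 17 lysosomal promoters with an entry, those of Ctsd, Lamp1 and Ctsl.

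Among the genes of lipid handling that rose was Apoe, the lipid carrier that tissue macrophages secrete. It had 4523 and 3255 CPM at E12.5 and 8649 and 7723 CPM at E14.5. By E16.5 it had reached 17406 and 15172 CPM, and the P3 wells had 21539 and 12652 CPM. The embryonic stages did not overlap, each step passed, and the gain over the span was 1.97 ± 0.13 (edgeR adjusted p = 9.71e-06). In the other cells Apoe stayed between 349 and 564 CPM before birth. In all 6 of 14 tested lipid genes rose over the span, with a median of 0.89 when genes with no UMI at E12.5 are set at their bounds, and that share was not far above the 34.2% of macrophage-enriched genes that rose. Spp1, osteopontin, and Gpnmb, a glycoprotein of lipid-laden cells, had no UMI at E12.5. At E16.5 they had 574 and 70.4 and 227 and 20.1 CPM, so the replicates differed widely, and 1 cell held 70.1% and 75% of the Spp1 UMIs in the E16.5 libraries. Plin2, which coats lipid droplets, rose by 1.47 ± 0.21 to E14.5 (edgeR adjusted p = 0.00272) and then fell by 1.03 on the log2 scale to E16.5 (SE 0.19, edgeR adjusted p = 0.0224), with 136 and 82.4, 328 and 316, and 163 and 158 CPM.

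Of the iron and haem genes 3 of 9 tested rose over the span, also near that 34.2%. Hmox1, haem oxygenase 1, which breaks down haem from ingested red cells, had 60.9 and 28.7, 287 and 408, and 626 and 510 CPM. It rose by 3.54 ± 0.29 (edgeR adjusted p = 2.88e-05), and the other cells had 9.03 to 27 CPM. A single cell held 80% of the Hmox1 UMIs in E16.5 replicate 1 and 57.6% in replicate 2. Without the top cell of each library the levels were 35.1 and 22.6, 155 and 169, and 129 and 220 CPM, still without overlap between E12.5 and later stages. Trf, transferrin, rose by 2.28 ± 0.23 (edgeR adjusted p = 0.000111), from 113 and 86 CPM to 423 and 628. Slc40a1, ferroportin, the exporter of iron, did not pass (0.47 ± 0.25, edgeR adjusted p = 0.228). Of the genes for uptake of dying cells 3 of 10 rose, with a median of 1.04, a share that is again no higher than among macrophage-enriched genes.

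**Figure D5:**
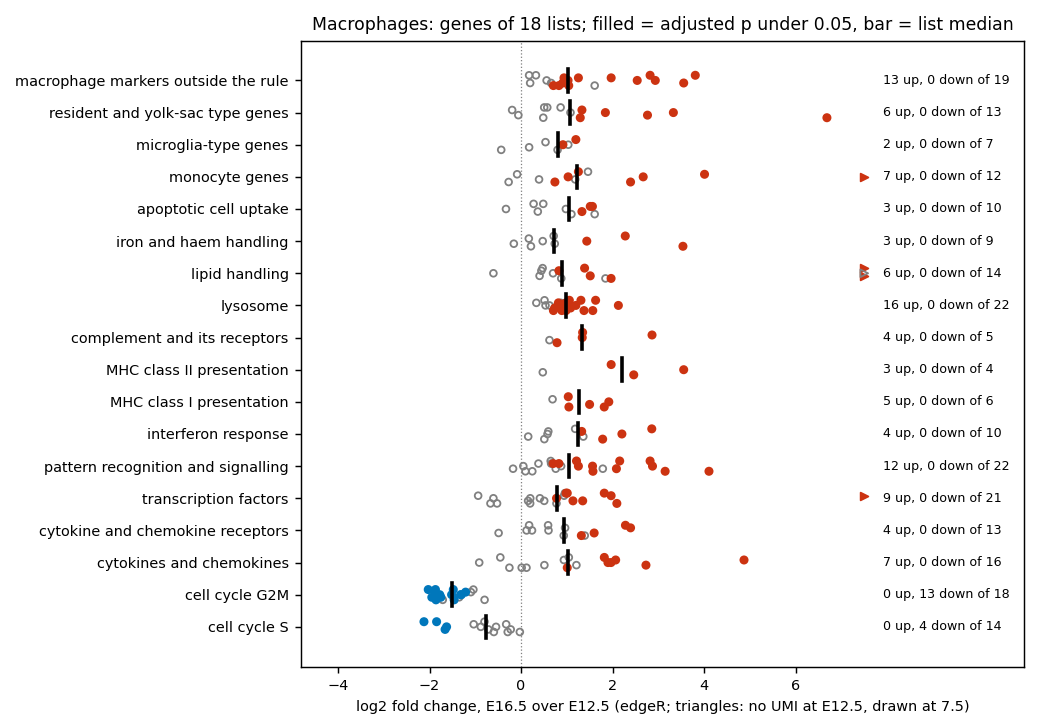
Change of single genes in the macrophages from E12.5 to E16.5 (fitted log2 fold change, horizontal axis) by gene list (vertical axis), filled where the edgeR test passed. Bars are list medians, triangles at the right are genes with no UMI at E12.5, which enter the medians at their bounds, and the counts of genes up and down stand at the right, without the genes that the rule used. The medians of both cell cycle lists lie below 0 and those of the other 16 lists above it.

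Of 16 tested cytokines and chemokines 7 rose over the span, namely Ccl6, Ccl9, Ccl12, Cxcl2, Cxcl16, Il1b and Osm, a share again not far above that 34.2%. Il1b had 139 and 35.8, 197 and 245, and 338 and 412 CPM, and rose by 1.97 ± 0.33 (edgeR adjusted p = 0.00265). Cxcl2, a neutrophil attractant, had 168 and 43 CPM at E12.5 and 418 and 390 at E16.5, and rose by 1.82 ± 0.33 (edgeR adjusted p = 0.00406). Ccl3 and Ccl4, which attract leukocytes, did not pass. Ccl4 had 749 and 731, 976 and 883, and 503 and 676 CPM, lowest of the embryonic stages at E16.5 (−0.45 ± 0.19, edgeR adjusted p = 0.144). Among growth factors Igf1 and Grn rose, 2 of 6 tested, no higher a share than the 34.2% of macrophage-enriched genes. Igf1, insulin-like growth factor 1, had 72.5 and 32.3 CPM at E12.5, then 255 and 347 (E14.5) and 193 and 176 (E16.5). It rose by 2.41 ± 0.28 to E14.5 (edgeR adjusted p = 0.000876) while the other cells went from 165 and 171 CPM to 135 and 146 and then 76.2 and 82.9.

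Of cytokine receptors other than Csf1r, which the rule used, 4 of 13 tested rose over the span, near the 34.2% of macrophage-enriched genes that did. Among the 4 were Ccr1 (1.60 ± 0.36, edgeR adjusted p = 0.0118) and Il10ra, the binding chain of the receptor for the anti-inflammatory interleukin 10 (2.28 ± 0.46, edgeR adjusted p = 0.00757). Pattern recognition and signalling genes rose in 12 of 22 cases, with a median of 1.04. Cd14, the co-receptor for bacterial lipopolysaccharide, gained 2.82 ± 0.38 (edgeR adjusted p = 0.000698), and Clec4n, the fungal sensor Dectin-2, went from 26.1 and 3.58 CPM to 183 and 113. Interferon response genes rose in 4 of 10 cases, a share near that 34.2%, with Ifitm3, which blocks viral entry, up by 2.20 ± 0.25 (edgeR adjusted p = 0.000277).

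Of 21 tested transcription factors 9 rose over the span and none fell, beside the 34.2% of macrophage-enriched genes that rose, so the share was near that background. Klf4, a factor of monocytes and of quiescent cells, was not seen at E12.5 and then had 18.9 and 14.2 CPM (E14.5) and 115 and 111 CPM (E16.5), at least 10.3-fold above E12.5. Klf6 rose by 2.09 ± 0.25 (edgeR adjusted p = 0.000309). Irf8, which together with Spi1 directs the lineage, did not pass (0.41 ± 0.21, edgeR adjusted p = 0.229).

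Proliferation genes fell. Of 18 tested genes of the G2 and M phases 13 fell over the span and none rose, with a median of −1.5, and of 14 tested S phase genes 4 fell, with a median of −0.76. Of all genes tested 5.72% (255 of 4459) fell, and of those enriched in macrophages at E12.5 7.42% (29 of 391). Top2a, the topoisomerase that untangles chromosomes, had 168 and 186, 166 and 112, and 78.4 and 75.4 CPM. The E16.5 libraries lay below the other embryonic ones, although without the cells that lacked C1q Top2a had 87.1 and 163 CPM at E12.5 and 63.4 and 82.2 CPM at E16.5, and the gene fell by 1.30 on the log2 scale (SE 0.26, edgeR adjusted p = 0.00738), while the other cells kept 134 to 175 CPM. Cdk1, the mitotic kinase, fell by 1.48 (SE 0.29, edgeR adjusted p = 0.00668), from 107 and 82.4 to 40.7 and 30.2 CPM. Mki67 had 87 and 89.6, 130 and 33.2, and 26.1 and 32.7 CPM and missed the threshold (−1.71 ± 0.54, edgeR adjusted p = 0.0547). Of the 13 genes 6 passed again without E12.5 replicate 1 or either E16.5 library, and 7 among macrophages with at least 3 C1q UMIs, where Top2a did not (−0.91, adjusted p = 0.183). Thinned to 2000 UMIs, 83.3% and 60% of the macrophages had at least 2 UMIs of these G2 and M genes at E12.5. Later this held for 48.4% and 27.9% (E14.5), 30.5% and 20.8% (E16.5), and 34.9% and 37.5% (P3). The other cells had 38.4% to 52.4% before birth. Only E12.5 replicate 1, where the exact interval was 58.6% to 96.4%, lay above its other cells beyond counting error, and E14.5 replicate 2 (15.3% to 43.7%) and E16.5 replicate 2 (upper bound 35%) lay below theirs. Thinning left out 0 to 4 macrophages per library, and without it 65.9% to 95% had such UMIs.

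Other named genes also fell. Nolc1, a nucleolar protein of ribosome assembly, had 131 and 89.6 CPM at E12.5 and 27.7 to 32 CPM in the later embryonic libraries, and fell to E14.5 by 2.00 on the log2 scale (SE 0.29, edgeR adjusted p = 0.00313). Psat1, an enzyme of serine synthesis, had 78.3 and 75.3, 40.8 and 33.2, and 20.3 and 17.6 CPM. It fell by 2.08 over the span (SE 0.35, edgeR adjusted p = 0.00247), and Shmt2, which feeds serine into one-carbon metabolism, by 1.71 (SE 0.49, edgeR adjusted p = 0.0365). Prtn3, a protease of granulocyte precursors, had 145 and 43 CPM at E12.5 and 0 to 20.4 CPM later (−4.13 ± 0.82 over the span, edgeR adjusted p = 0.00653), but 1 cell held 72% and 83.3% of its UMIs in the E12.5 libraries. From E14.5 to E16.5 Cela1, an elastase, fell by 1.47 (SE 0.28, edgeR adjusted p = 0.0267), and Neat1, a nuclear long non-coding RNA, peaked at E14.5 with 345 and 287 CPM.

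Genes that respond within minutes to stress or digestion rose with stage as well. Of 16 tested immediate early and heat shock genes 12 rose over the span, with a median of 1.38. Of all genes tested 7.24% (323 of 4459) rose, and of macrophage-enriched genes 34.2% (216 of 632). Dusp1, a phosphatase of stress kinases, had 87 and 46.6, 294 and 247, and 702 and 852 CPM and rose by 3.42 ± 0.24 (edgeR adjusted p = 1.15e-05). Fos had 598 and 348, 1218 and 1119, and 1941 and 2816 CPM and rose by 2.24 ± 0.22 (edgeR adjusted p = 9.87e-05). The other cells moved in the same direction, from 203 and 211 to 835 and 905 CPM of Fos and from 49.3 and 45.8 to 137 and 137 CPM of Dusp1. Il1b, Cxcl2, Klf4 and Klf6 belong to the same kind of rapidly induced genes, and the part of the digestion in their change was not tested. Xist, which only female cells express, rose from 377 and 258 to 927 and 1036 CPM in the macrophages and from 150 and 136 to 796 and 799 CPM in the other cells. The labels do not give the sex of the embryos, and its part in other changes was not tested.

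Stage changes in the macrophages were also set against those of the other cells of the same libraries, E16.5 against E12.5, over 13305 genes. In edgeR's interaction test 233 genes (1.75%) changed more upward in the macrophages and 237 (1.78%) more downward. This split moved with the fit. With limma and a spread per class it was 74 above and 266 below, and without macrophages over 1% of another cell type it was 368 above and 120 below. The macrophage change exceeded that of the other cells in 14 of 22 lysosomal genes, and 14 of 23 G2 and M genes went further down in the macrophages, with a median of −1.37. Of 19 macrophage markers outside the rule, 1 changed more upward in the macrophages and 8 more downward, with a median of −0.96. The other cells are those that failed the rule. At E12.5 they had 0.0624 and 0.0693 CPM of Ctss and 0.208 and 0.0693 CPM of Fcgr3, 2 of those 8. At E16.5 they had 1.77 and 1.60 CPM of Ctss and 2.13 and 1.08 CPM of Fcgr3. For such genes the change in the other cells rests on few UMIs. For Apoe the difference of changes was 1.97. Both cell classes share 1 estimate of the spread in this test, although the sums over macrophages rest on far fewer cells.

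The macrophages of P3 were set against those of E16.5 by a rule of size, which stands in for a test. Of 7440 genes 45 (0.605%) were at least 4-fold higher and 4 (0.0538%) at least 4-fold lower in both wells against both E16.5 libraries. The 4 lower genes were Ccr2, Ly6c2, BC035044 and Ms4a4c, where Ms4a4c is a relative of Ms4a7 found in monocytes, and Ly6c2 rests on the single cell named above in E16.5 replicate 1. With a limit of 2-fold, 200 genes were higher and 34 lower. Of the 45 higher genes only Cbr2, a carbonyl reductase of resident macrophages, and Gm10116 were also at least 2-fold enriched in the macrophages. Cbr2 had no UMI at E12.5 or E14.5, 10.2 and 10.1 CPM at E16.5, and 51.3 and 63.2 CPM at P3. The others were led by genes of connective tissue, such as Sparc, with a smallest log2 difference of 4.42, and Igfbp7, with 4.22, which the surrounding cells express strongly. Also among the higher genes were the ribosomal protein pseudogenes Rpl27-ps3, Rps12-ps3 and Rpl23a-ps3, which share sequence with their parent genes, so their counts are uncertain. Rps12-ps3 had 11.6 and 12.6 CPM at E16.5 and 101 and 303 CPM at P3, and in the other cells it went from 18 and 17.8 to 100 and 365 CPM. The file headers name Cell Ranger 3.0.0 for P3 and 3.1.0 for the embryonic libraries, and the part of that difference was not tested. Fibroblast markers summed to 601 and 1228 CPM in the macrophages of the P3 wells, against 49.4 and 42.7 CPM at E16.5. Endothelial markers summed to 235 and 841 CPM against 33.4 and 35.2 CPM, and Cdh5 and Fabp4, known from endothelial cells, were among the higher genes. Scrublet marked 10 of 83 and 15 of 96 macrophages as doublets in the wells, against 1 to 4 per embryonic library. In well 1 a single cell held 75% of the Cdh5 UMIs, and in well 2 a single cell held 70% of those of Fabp4. Without the macrophages that had over 1% of their UMIs in markers of another cell type, 38 genes were higher and 4 lower, of 7088. What part smaller amounts of such RNA had in the higher genes was not tested. The wells themselves differed, with 202 of 6348 genes at least 4-fold higher in well 2 and 25 in well 1.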

How the data were processed

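Whole hearts of wild-type mice at 4 stages were measured by droplet single-cell RNA sequencing. The deposited files hold whole UMI counts for every gene in every barcode, with no normalization or removal of free RNA by the authors. The file headers name Cell Ranger 3.1.0 (3.0.0 for P3), the submitters' processing notes Cell Ranger 2.1.1, Seurat 3.1.1 and mm10. Labels and methods differ on the enzyme (trypsin or collagenase II) and the kit version. Embryonic matrices list 737280 barcodes each, while the P3 matrix holds 10964 barcodes already filtered.

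Barcodes with at least 1000 UMIs and 300 genes were kept, doublets included (Scrublet marked 3.67% to 6.07%). Shares have exact Clopper-Pearson intervals of 95%. Counts of the macrophages were summed per library and tested with edgeR 4.0.16 in R 4.3.3 (TMM, filterByExpr, quasi-likelihood, 6 sums, Benjamini-Hochberg over all genes tested), and checked on simulated counts. The interaction test used 12 sums with the library as a term. P3 was set against E16.5 by size, at least 4-fold, with at least 30 UMIs and a floor of 3 UMIs per library. Log2 differences are fitted values, and CPM is over all UMIs of the summed cells. Standard errors were worked back from the quasi-likelihood F statistic, as the absolute log2 difference over its square root, and add nothing to the test. Levels of different genes come from 3′ tags. Alternatives used DESeq2 1.42.0, limma 3.58.1, other floors, a replicate block and left-out libraries. Deviations of same-numbered libraries from their stage means correlated at 0.0207, −0.0469 and −0.0169. Sums over so few cells are noisy, so these values cannot decide whether the numbers pair libraries.

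Named genes were the members of 34 lists, the 10 genes with the largest change in each direction among those past the threshold, with at least 50 CPM and 2-fold above the other cells at the higher stage, and the 20 genes with the highest lowest ratio to the other cells. The rule for macrophages and the lists were chosen with earlier results of these data known. Some genes are not reported here by name.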

Additional observations from a re-analysis of the deposited data

Results flagged for a closer look

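For 470 genes the change from E12.5 to E16.5 differed between the macrophages and the other cells with low Tnnt2 in edgeR's interaction test. That test has 1 estimate of the spread for both classes. Given here are 10 of them, the 5 largest differences in each direction under a filter. It kept listed genes outside the rule that were macrophage-enriched at E16.5 (positive differences) or E12.5 (negative). They also passed the test between these stages and had UMIs in both classes of each library. Values are the log2 change in the macrophages minus that in the other cells. Pf4 differed by 6.27, Thbs1, the matrix protein thrombospondin 1, by 4.93, Hmox1 by 3.78, Trf by 3.35 and Igf1 by 2.77. In these 5 genes the macrophages rose while the level in the other cells fell or hardly moved. Thbs1 went from 5.8 and 7.17 to 95.9 and 138 CPM in the macrophages and from 65.9 and 73.6 to 37.8 and 37.3 CPM in the other cells.

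The other 5 had negative differences, with −2.52 for Ctss, −2.42 for Ms4a6c, −2.29 for the Fc receptor Fcgr3, −1.94 for Ly86 and −1.34 for Lsp1, a regulator of the cytoskeleton in leukocytes. All 5 rose in the macrophages as well. In the other cells Ctss had 0.0624 and 0.0693 CPM at E12.5 and 1.77 and 1.60 at E16.5, so a large ratio there rests on few UMIs, whereas Lsp1 went from 34.8 and 42.5 to 158 and 164 CPM. The cause of these rises was not tested.

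Both E10.5 embryo libraries, which enter no comparison above, held cells that pass the same rule, 29 in replicate 1 and 29 in replicate 2. They were 0.170% and 0.173% of all cells there, where a count of 0 would allow up to 0.0176% and 0.0179%. The cells came from embryos digested without head and limbs and not from dissected hearts, so their tissue is not known. They had 230 and 248 CPM of Cx3cr1, 108 and 132 of Apoe, 35.1 and 79.4 of Pf4, 1.17 and 22.5 of Lyve1, and 178 and 139 of Top2a.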

How the results depend on the processing

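Counts of genes that changed depended on depth and on the number of libraries. For E14.5 against E12.5, 336 genes became 150 with at least 3 C1q UMIs per cell, 171 with at least 3 UMIs over 2 genes, 159 with DESeq2, 15 with cells thinned to 2000 UMIs, where only 1351 genes could be tested, and 106 to 297 with a library left out. For E16.5 against E14.5, 56 became 11 with 3 UMIs over 2 genes, 16 when thinned, 232 without the count filter, 91 without globin genes and 1 to 144 with a library left out, the 1 without E16.5 replicate 1. For E16.5 against E12.5, 578 became 265 with DESeq2, 41 when thinned and 288 to 496 with a library left out. Of the P3 rule's 49 genes, a 2-fold limit gave 234 and edgeR with the wells as libraries 108. For the interaction, 470 became 340 with limma and a spread per class, of which 98 were shared. The replicate block gave 335, 64 and 563 genes, with 306, 54 and 546 shared with the fit without it.

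The ratio of shares was 1.37 from E14.5 to E16.5 with 3 UMIs over 2 genes. From E16.5 to P3 it was 1.61 with that rule, 1.77 with 12 UMIs, 1.55 with Tnnt2 under 300 CPM, 1.52 without Scrublet doublets, 1.80 with 3 C1q UMIs, 1.67 under the study's mitochondrial ceilings, 1.61 with 3000 UMIs per cell and 1.80 with the floors of 300 UMIs and 270 genes. Leaving out cells with 3 markers of another type removed nearly all macrophages (20 of 20 in E12.5 replicate 1) and gave ratios of 11.2, 2.30, 0.205 and 0.533, the last ones reversed, so its fits could not be run.

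Many single genes lost their call. Of 99, 38, 154 and 105 called genes followed for the 3 stage comparisons and the interaction, 7, 1, 30 and 23 kept it in all alternatives that could test them. The other 92, 37, 124 and 82 lost it in at least 1. Alternatives in which a gene had too few counts to be tested do not enter this tally. The changes of direction were Prtn3 (0.29) and H19 (−0.56, and 0.14 from E14.5 to E16.5) with 3 UMIs over 2 genes, Lyz2 (−0.10) and Cxcl2 (−0.19) for E14.5 against E12.5 and Csf2ra, E16.5 against E12.5 (−0.0557), when thinned, S100a9 (−0.65) from E14.5 to E16.5 with Tnnt2 under 300 CPM, and the interaction for Hbb-y (−4.54) and Hba-x (−1.76) without cells over 1% of another type, an alternative added after the data were seen. The cause was not tested. Lgals3, Cd74, Ctss, Ms4a7, Pf4, Sepp1, Hmox1, Trf, Ctsh, Psap, Apoe, Il1b, Klf6, Fos and Dusp1 kept direction and call over the span in all 19 alternatives.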
